A study of Mus musculus with 6 samples.

Results

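The matrix metalloproteinases (MMPs), the ADAM and ADAMTS proteases and the tissue inhibitors of metalloproteinases (TIMPs) were examined in mouse kidney. Members were the protein-coding genes whose GENCODE M21 symbol was Mmp, Timp, Adam, Adamts or Adamtsl followed by a number, which gave 83 of the 55450 genes in the table, or 83 of its 21951 protein-coding genes. They comprised 22 MMPs, 4 TIMPs, 33 ADAMs, 19 ADAMTS proteases and 5 ADAMTS-like proteins. Mmp1a bears a matching symbol but is annotated as a polymorphic pseudogene, and it was not counted as a member.

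Kidney mRNA of 3 mice at day 0 was compared with that of 3 mice at day 21, out of 6 mice that the study assigned to each time. All were wild-type C57BL/6J males, 7 weeks old when bought and given 1 week to settle in. The day-21 group received adenine (0.16 g/kg) together with potassium oxonate (2.4 g/kg) once a day by gavage, a regimen that raises uric acid and injures the kidney, and the day-0 group is labelled as control with 20% PEG. No PEG is named in the labels of the day-21 mice, so vehicle and regimen cannot be told apart. The titles of the control samples name no day, and these samples were taken as the study's day-0 group. On that reading the mice also differ by the 21 days of the experiment. The 6 libraries held 10963849 to 14333311 counts, and no sequencing batch is named. Values below are raw counts, CPM (a gene's count relative to the TMM-scaled size of its library) or CPM per kb of exon, the last of which was used wherever levels of different genes were compared.

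MMPs, ADAMs and ADAMTS proteases are zinc-dependent enzymes of the metzincin superfamily. MMPs are made as inactive precursors and cut matrix proteins and many other substrates once activated, membrane-bound ADAMs release the outer parts of growth factors, cytokines and adhesion molecules from the cell surface, and ADAMTS enzymes are secreted and act on proteoglycans, procollagens and microfibrils. TIMPs bind the active sites of these enzymes, and the balance of enzyme and inhibitor has long been studied in kidney fibrosis, where matrix accumulates between tubules.

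Of the 83 members, 50 passed the count filter and were tested, and 27 of these were DEGs with higher mRNA in the day-21 group (54.0%), against 19.6% of all 16592 genes tested. Another 4 of the 50 were lower, against 15.5% of all genes. DEGs had an adjusted p under 0.05 (edgeR's quasi-likelihood test, Benjamini-Hochberg over all genes tested) and a fold change over 1.5. The remaining tested members numbered 19, and 33 members were below the filter. In 34 of the 50 the ranges of the day-0 and the day-21 mice did not overlap (68.0%, against 57.1% of all genes tested), and these included all 31 DEGs. Passing the filter can itself depend on the change: 36 members passed it in both groups, with 19 higher and 3 lower, whereas 9 passed it through the day-21 mice alone, and 8 of those were among the 27. Another 2, Timp4 and Adam1a, passed it through the day-0 mice alone, and 1 of them, Timp4, was lower. The plot of counts by mouse shows the 31 DEGs.

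**Figure D1:**
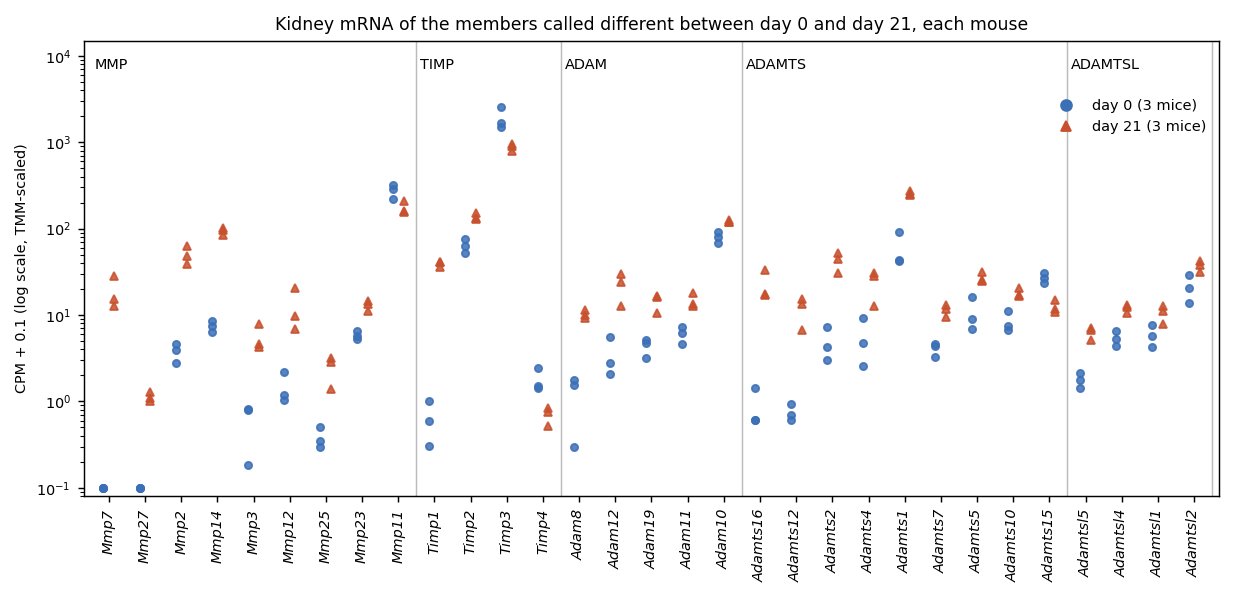
CPM + 0.1 (log axis) of the 31 member DEGs in each of the 3 day-0 mice (circles) and the 3 day-21 mice (triangles), grouped by family and ordered by fold change. The 2 sets of symbols do not overlap for any of the 31 genes, and Mmp11, Timp3, Timp4 and Adamts15 are the 4 whose day-21 mice lie below the day-0 mice.

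By family, 16 of the 22 MMPs were tested, with 8 higher and 1 lower, and all 4 TIMPs, with 2 higher and 2 lower. Of the 33 ADAMs 11 were tested, with 5 higher and 0 lower. Of the 19 ADAMTS proteases 14 were tested, with 8 higher and 1 lower, and of the 5 ADAMTS-like genes, all tested, 4 were higher. These counts stand against the 19.6% of all genes tested that were higher and the 15.5% that were lower. Of the higher members, 4 MMPs, 1 TIMP, 4 ADAMs, 6 ADAMTS proteases and 4 ADAMTS-like genes passed the filter in both groups. The other higher members passed it through the day-21 mice alone. Among the 12 MMPs that passed it in both groups, 4 were higher and 1 was lower. In these bulk libraries, fewer cells of a type and less RNA per cell cannot be told apart. Markers of proximal tubule cells were lower in 5 of 5 cases (summed CPM 8846 to 9861 on day 0 and 1682 to 2068 on day 21). Those of fibroblasts and myofibroblasts were higher in 5 of 5 (187 to 244 and 834 to 1583), as were those of macrophages (102 to 117 and 397 to 457) and T cells (3.51 to 7.58 and 21.4 to 22.8). Of the other kidney markers, 1 of 2 of the thick ascending limb, 2 of 2 of the distal tubule, 3 of 4 of the collecting duct, 3 of 3 of podocytes and 1 of 4 of endothelium were lower, with none higher. The 4 urothelial markers summed to 2.51 to 14.6 CPM on day 0 and 4.47 to 9.25 CPM at day 21, and the 3 of B cells, all below the filter, to 0.602 to 0.907 CPM and 0.674 to 1.13 CPM. The part of these lists in the member results was not tested.

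Among the inhibitors, Timp1, which is secreted and induced in many injured tissues, had 9, 6 and 2 counts on day 0 and 586, 603 and 669 at day 21. Timp1 passed the filter through the day-21 mice alone. Every day-21 mouse lay far above every day-0 mouse, and the mean was 0.534 ± 0.350 CPM (SD, n = 3) on day 0 and 39.5 ± 3.03 CPM at day 21 (log2 fold change 6.18 ± 0.28, SE, edgeR adjusted p = 5.3e-07). Timp1 lies on chromosome X (20870166 to 20874735, plus strand, GRCm38), in 6 exons that no other annotated gene shares.

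Timp2, which both inhibits MMPs and takes part in the activation of MMP2 at the cell surface, had 521, 755 and 740 counts on day 0 and 1865, 2154 and 2482 at day 21. The groups were again apart, and the mean was 63.6 ± 12.1 CPM (SD, n = 3) on day 0 and 137 ± 12.7 CPM at day 21 (log2 fold change 1.11 ± 0.15, SE, edgeR adjusted p = 0.00017).

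Timp3, which is held in the extracellular matrix and also inhibits ADAM17 and ADAMTS aggrecanases, had 14982, 20390 and 24831 counts on day 0 and 13649, 13190 and 14785 at day 21. All day-21 mice were below the lowest day-0 mouse, the day-0 mice differed more among themselves than the day-21 mice, and the mean was 1914 ± 566 CPM (SD, n = 3) on day 0 and 886 ± 90.6 CPM at day 21 (log2 fold change -1.11 ± 0.19, SE, edgeR adjusted p = 0.001). Timp3 (chromosome 10, 86300372 to 86349506, plus strand) shares 21.3% of its exon bases with Syn3 on the opposite strand, and 36.3% of the 50-base words of its longest transcript occur in another gene, mostly Syn3. Syn3, a synaptic vesicle gene, moved with it: Syn3 had 5234, 8317 and 9385 counts on day 0 and 5576, 6921 and 6699 at day 21 (log2 fold change -0.84 ± 0.19, SE), and Timp3 had 1.91 to 2.86 counts for each Syn3 count. Whether the counting used strand is not given in the sources used here, and without strand the reads of a gene and of its antisense partner cannot be told apart, so the values of Timp3 are uncertain to that extent.

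Timp4, the inhibitor with the fewest counts, had 14, 28 and 13 counts on day 0 and 6, 11 and 12 at day 21, a difference of 1 count between the highest day-21 and the lowest day-0 mouse, although the groups did not overlap after scaling (log2 fold change -1.46 ± 0.43, SE, edgeR adjusted p = 0.019). It passed the filter through the day-0 mice alone. The call was lost in 4 of the 15 refits that tested it, namely with library size alone (edgeR adjusted p = 0.056), without day0 replicate 2 (0.091), without day21 replicate 1 (0.078) and without day21 replicate 2 (0.054). Timp4 shares 1.53% of its exon bases with Syn2 on the opposite strand, which was lower as well (log2 fold change -1.68 ± 0.30, SE).

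Per kb, the summed TIMP level was 252 ± 72.1 CPM per kb (SD, n = 3) on day 0 and 189 ± 16.0 on day 21. Timp3 made up 93.0% ± 0.860 of it on day 0 and 57.6% ± 1.65 on day 21. Timp1, at the third place of the 4 on day 0, took the second place at day 21 with 23.6% ± 0.196 of the sum, and Timp2 went from 6.58% ± 0.662 to 18.7% ± 1.53. Timp1 (40.5 to 46.6 CPM per kb) and Timp2 (33.0 to 39.0) did not overlap on day 21. Without Timp3 the sum was 17.2 ± 2.70 CPM per kb on day 0 and 79.8 ± 5.88 on day 21.

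**Figure D2:**
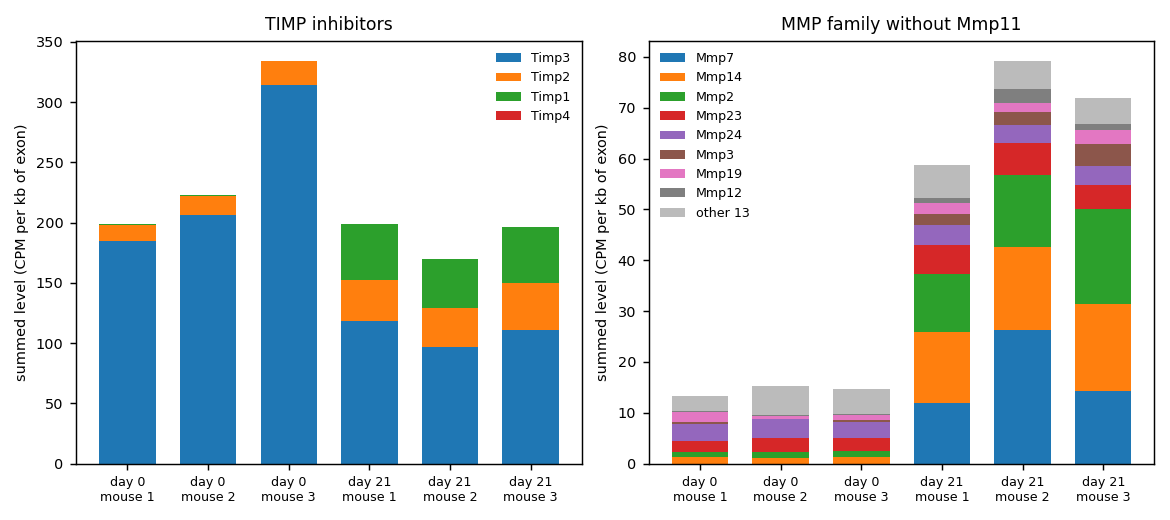
Summed level in CPM per kb of exon in each mouse, stacked by gene, for the 4 TIMPs (left) and for the MMP family without Mmp11 (right, 8 named genes and 13 others in grey). In the TIMP bars of day 21 the Timp3 part is smaller and Timp1 and Timp2 are larger, and the MMP bars go from 14.4 ± 1.03 on day 0 to 69.9 ± 10.4 on day 21, mainly through Mmp7, Mmp14 and Mmp2.

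The MMP with the largest change was Mmp7 (matrilysin), an enzyme of epithelial cells that lacks the hemopexin domain of most MMPs and can cleave E-cadherin. It had no counts in any mouse on day 0 and 179, 469 and 249 at day 21. The groups did not overlap, and the level at day 21 was at least 65.2-fold higher, taking 3 counts per library as the floor (edgeR adjusted p = 2.0e-05). Its mean at day 21 was 18.6 ± 8.20 CPM, and it passed the filter through the day-21 mice alone. Mmp7 (chromosome 9, 7692090 to 7699585, plus strand) shares 11.5% of its exon bases with the antisense gene AV064505, which went from no count in any day-0 mouse to 76, 207 and 122 counts at day 21, with 2.04 to 2.36 Mmp7 counts for each of its counts.

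Mmp2 and Mmp14 form a functional pair, since MMP14 is a membrane-type MMP that activates the gelatinase MMP2. Mmp2 had 27, 47 and 44 counts on day 0 and 549, 803 and 1035 at day 21, and the mean was 3.71 ± 0.925 CPM (SD, n = 3) on day 0 and 50.0 ± 12.4 CPM at day 21 (log2 fold change 3.75 ± 0.24, SE, edgeR adjusted p = 2.3e-06). Mmp14 had 83, 77 and 72 counts on day 0 and 1178, 1638 and 1657 at day 21, and the mean was 7.36 ± 0.989 CPM (SD, n = 3) on day 0 and 94.2 ± 9.62 CPM at day 21 (log2 fold change 3.68 ± 0.15, SE, edgeR adjusted p = 2.9e-07). In both, the groups did not overlap. After scaling, Mmp2 had 2.71 to 4.53 CPM on day 0 and 38.8 to 63.4 CPM at day 21. Mmp14 had 6.35 to 8.32 CPM on day 0 and 83.3 to 101 CPM at day 21. The other gelatinase, Mmp9, had 14, 38 and 14 counts on day 0 and 51, 28 and 37 at day 21, with groups that overlapped (log2 fold change 0.31 ± 0.44, SE, edgeR adjusted p = 0.6). With it stood 3 membrane-type members that were not DEGs. Mmp15 (log2 fold change -0.01 ± 0.41, SE, edgeR adjusted p = 0.99), Mmp17 (log2 fold change 0.55 ± 0.41, SE, edgeR adjusted p = 0.31) and Mmp24 (log2 fold change 0.13 ± 0.14, SE, edgeR adjusted p = 0.49) overlapped between the groups, and for Mmp24 the 95% confidence interval of the log2 fold change ran from -0.18 to 0.43. Mmp24 shares 13.6% of its exon bases with BC029722 on the opposite strand, which was not called (log2 fold change -0.06 ± 0.11, SE). With 0.354 to 0.432 Mmp24 counts for each BC029722 count, the values of Mmp24 are uncertain in the way given for Timp3. Mmp25, a membrane-type MMP of leukocytes, had 2, 3 and 4 counts on day 0 and 44, 46 and 21 at day 21 (log2 fold change 3.02 ± 0.54, SE, edgeR adjusted p = 0.0012). It passed the filter through the day-21 mice alone.

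Mmp3 (stromelysin 1), a broad-range enzyme of connective tissue cells, had 7, 1 and 7 counts on day 0 and 59, 76 and 126 at day 21, with no overlap (log2 fold change 3.49 ± 0.53, SE, edgeR adjusted p = 0.00045). It too passed the filter only through the day-21 mice, and 8.39% of its 50-base words occur in another gene, mainly Mmp10. Mmp12, the macrophage elastase, had 21, 13 and 9 counts on day 0 and 96, 339 and 157 at day 21. The day-21 mice differed widely among themselves and all lay above the day-0 mice (log2 fold change 3.16 ± 0.47, SE, edgeR adjusted p = 0.00038). Macrophage markers were higher in 5 of 5 cases, as given above, and their part in the Mmp12 result was not tested. Mmp23, an MMP anchored in the membrane by its amino terminus, had 52, 79 and 55 counts on day 0 and 186, 243 and 178 at day 21 (log2 fold change 1.14 ± 0.19, SE, edgeR adjusted p = 0.00086).

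Mmp11 (stromelysin 3), which furin activates inside the cell, was the MMP called lower. It had 2174, 3492 and 3086 counts on day 0 and 2242, 3510 and 2523 at day 21, and in raw counts the groups overlapped. After scaling they did not, and the mean was 275 ± 51.3 CPM (SD, n = 3) on day 0 and 174 ± 30.6 CPM at day 21 (log2 fold change -0.66 ± 0.17, SE, edgeR adjusted p = 0.0087). The call was lost in 4 of 16 refits: with upper-quartile scaling (log2 fold change -0.57), with library size alone (-0.26), without day0 replicate 3 (-0.56) and without day21 replicate 3 (-0.58). Mmp11 shares 5.58% of its exon bases with Chchd10, a gene on the opposite strand that encodes a mitochondrial protein. Chchd10 had 2315, 4084 and 3534 counts on day 0 and 2252, 3406 and 2397 at day 21 (log2 fold change -0.87 ± 0.18, SE), and Mmp11 had 0.855 to 1.05 counts for each Chchd10 count. In CPM per kb Mmp11 stood highest of the MMPs in both groups, at 87.1% ± 1.52 of the family sum on day 0 and 47.2% ± 3.16 on day 21, and this rank rests on the same counts. With Mmp11 the family sum was 113 ± 19.4 and 133 ± 19.9 CPM per kb, and the groups overlapped. Below Mmp11 the order per kb on day 0 was Mmp24 (3.19 to 3.77 CPM per kb), Mmp23 (2.23 to 2.78) and then Mmp14 (1.06 to 1.40), which overlapped with Mmp19 and Mmp28. At day 21 it was Mmp7 (11.8 to 26.2), Mmp14 (14.0 to 17.0) and Mmp2 (11.5 to 18.8), 3 genes whose ranges overlapped, followed by Mmp23 (4.66 to 6.19). The place of Mmp24 on day 0 is subject to its overlap with BC029722, given above.

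**Figure D3:**
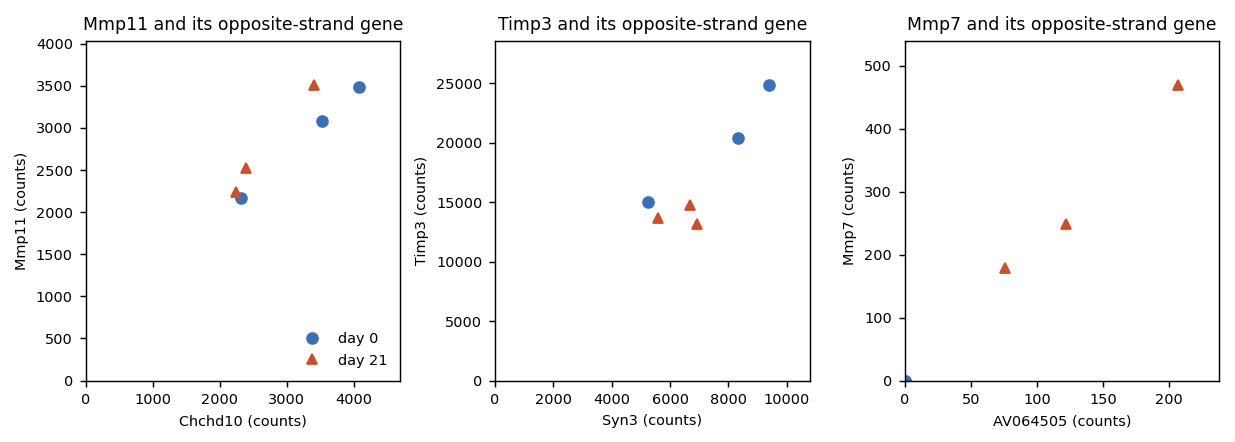
Counts in each mouse of a member (vertical axis) against the gene on the opposite strand that shares exon bases with it (horizontal axis), for Mmp11 and Chchd10, Timp3 and Syn3, and Mmp7 and AV064505, day 0 as circles and day 21 as triangles. The ratio of the pair stayed within 0.855 to 1.05 for Mmp11 and within 1.91 to 2.86 for Timp3, and in the third panel all 3 day-0 mice lie at the origin.

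Of the remaining MMPs tested, Mmp19 (log2 fold change 0.94 ± 0.37, SE, edgeR adjusted p = 0.058) was not a DEG and became one in 7 of 16 refits, among them that without day0 replicate 1. It shares 28.3% of its exon bases with opposite-strand genes, mostly Tmem198b, which was higher at day 21 (log2 fold change 1.07 ± 0.25, SE). Mmp28 (log2 fold change 0.17 ± 0.36, SE, edgeR adjusted p = 0.73) and the collagenase Mmp13 (log2 fold change 0.12 ± 0.35, SE, edgeR adjusted p = 0.79) overlapped between the groups. The other 2 collagenases were below the filter: Mmp1b was at 0 in every mouse, and Mmp8, an enzyme of neutrophils, had 9, 35 and 4 counts on day 0 and 2, 7 and 1 at day 21. Of the 5 refits that tested Mmp8, 3 called it lower (edgeR adjusted p 0.00095 to 0.079 over the 5): that with no filter on low counts, without day0 replicate 3 and without day21 replicate 2. Neutrophil markers did not move together, with S100a8 (log2 fold change -1.97) and S100a9 (-1.99) lower, Csf3r higher (1.19) and Ly6g not tested.

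**Figure D4:**
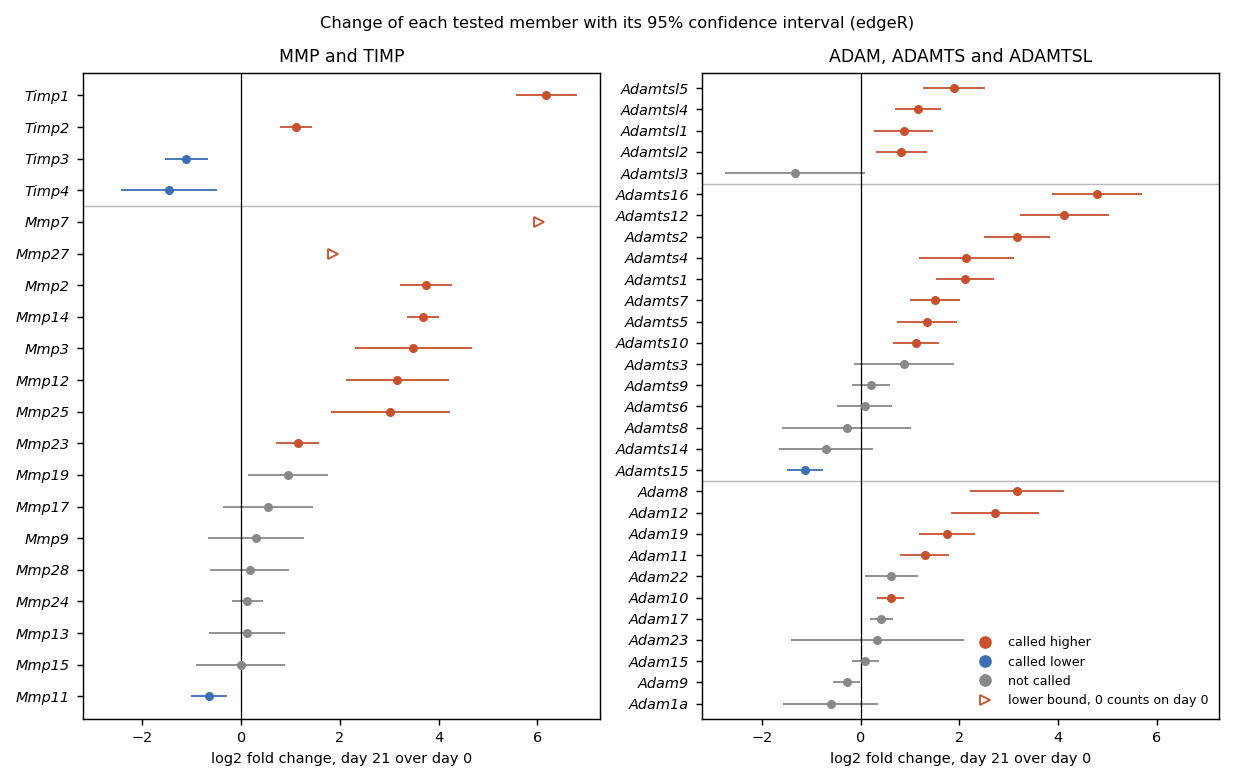
Log2 fold change of the day-21 over the day-0 group with its 95% confidence interval (edgeR) for the 50 tested members, MMPs and TIMPs on the left and ADAM, ADAMTS and ADAMTSL genes on the right. Red points were called higher, blue lower and grey not called, and open triangles give the lower bound for Mmp7 and Mmp27, which had no count at day 0.

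The mouse genome holds 9 of the member MMPs side by side on chromosome 9, over 427 kb, in the order Mmp13, Mmp12, Mmp1b, Mmp3, Mmp10, Mmp8, Mmp27, Mmp20 and Mmp7. Of these 9, 5 were tested and 4 were higher at day 21, namely Mmp12, Mmp3, Mmp27 and Mmp7, while Mmp13 at one end of the row was not called. Of all genes tested, 19.6% were higher. Mmp3, Mmp27 and Mmp7 passed the filter through the day-21 mice alone, so their entry into the test depended on the rise. Mmp12 and Mmp13 passed it in both groups. Mmp27 had no counts in any mouse on day 0 and 14, 20 and 15 at day 21, at least 3.62-fold higher against the floor of 3 counts per library (edgeR adjusted p = 0.00098). Mmp10 had no counts in any mouse on day 0 and 2, 3 and 5 at day 21 and Mmp20 had no counts in any mouse on day 0 and 2, 7 and 7 at day 21, both below the filter and with groups apart. With no filter on low counts Mmp20 was called higher (edgeR adjusted p = 0.029) and Mmp10 was not (0.098). Mmp8, which precedes Mmp27, was below the filter as well, and its groups overlapped.

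**Figure D5:**
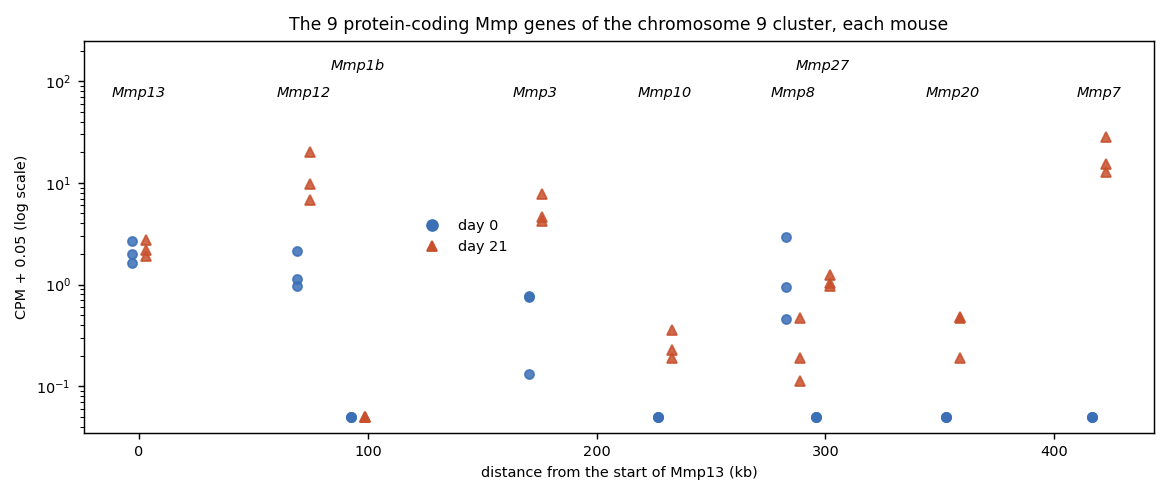
CPM + 0.05 (log axis) of the 9 protein-coding Mmp genes of the chromosome 9 row in each mouse, against the distance of each gene's start from that of Mmp13 in kb, day 0 as circles and day 21 as triangles. The groups are apart for Mmp12, Mmp3, Mmp27 and Mmp7 and, at 7 counts or fewer, for Mmp10 and Mmp20, overlap for Mmp13 and Mmp8, and lie at 0 throughout for Mmp1b.

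The sequence before the start of these neighbours is shown because several MMP genes of this row are textbook examples of promoters with an AP-1 site near a TATA box, and because the row holds members that rose beside members that did not. RefSeq windows (GRCm38.p6) were matched for 52 of the 83 members, and the 250 bases before each start were searched for the AP-1 letters TGAGTCA, on the other strand TGACTCA. These letters were found in 8 of the 52 members (15.4%): Mmp3, Mmp7, Mmp10, Mmp12, Mmp13, Mmp1b, Adam19 and Adam29. They occur in 5.16% of all 27025 genes with a window, in 4.27% of the tested ones and in 5.80% of the 2327 genes called higher. Of the 18 members that were higher and had a window, 4 held the letters, as did 1 of the 13 that were tested and not called. The 4 were Adam19, Mmp3, Mmp7 and Mmp12, and the 1 was Mmp13. All but Adam19 lie in the chromosome 9 row, and Mmp3 and Mmp7 passed the filter through the day-21 mice alone. The TATA letters TATAAA, on the other strand TTTATA, were found in 12 of the 52 members (23.1%) against 14.3% of all genes, 8.31% of tested genes and 10.4% of genes called higher. GGGCGG, the GC box, or CCGCCC stood in 24 of the 52 (46.2%, against 35.4% of all genes but 60.6% of tested genes and 58.5% of genes called higher), and the CRE letters TGACGTCA, which read the same on both strands, in 0 of the 52 (1.77% of all genes). None of these 4 runs of letters can share a base with another. A match of letters is a description of the window and does not show that a factor binds there.

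The last 110 bases before the start are given below, 5′ to 3′ on the strand of the gene, with the AP-1 and TATA letters in capitals. The windows are chr9:7691980-7692089 for Mmp7, chr9:7445712-7445821 for Mmp3, chr9:7347264-7347373 for the second RefSeq start of Mmp12, chr9:7571286-7571395 for Mmp27, chr9:7272404-7272513 for Mmp13 and chr9:7502232-7502341 for Mmp10, all on the plus strand, and chr9:7388027-7388136 on the minus strand for Mmp1b. Mmp7, Mmp3, Mmp12 and Mmp27 rose, Mmp13 was not called, Mmp10 was below the filter and Mmp1b was at 0.
Mmp7: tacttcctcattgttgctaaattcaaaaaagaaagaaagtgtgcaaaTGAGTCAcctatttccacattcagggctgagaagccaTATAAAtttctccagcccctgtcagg
Mmp3: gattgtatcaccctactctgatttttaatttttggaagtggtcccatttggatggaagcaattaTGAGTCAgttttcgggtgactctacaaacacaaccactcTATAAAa
Mmp12: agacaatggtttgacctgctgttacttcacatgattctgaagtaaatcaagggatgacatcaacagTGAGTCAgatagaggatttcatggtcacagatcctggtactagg
Mmp27: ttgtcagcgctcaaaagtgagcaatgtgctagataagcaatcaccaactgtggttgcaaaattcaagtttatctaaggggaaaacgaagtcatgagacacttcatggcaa
Mmp13: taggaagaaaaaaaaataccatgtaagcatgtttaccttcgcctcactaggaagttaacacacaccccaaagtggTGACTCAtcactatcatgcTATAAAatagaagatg
Mmp10: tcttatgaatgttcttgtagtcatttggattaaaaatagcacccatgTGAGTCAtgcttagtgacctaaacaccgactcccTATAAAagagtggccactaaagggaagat
Mmp1b: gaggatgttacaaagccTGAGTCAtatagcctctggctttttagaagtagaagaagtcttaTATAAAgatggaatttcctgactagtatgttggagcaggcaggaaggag
The AP-1 letters began at -63 from the start in Mmp7 and Mmp10, at -46 in Mmp3, at -44 in Mmp12, at -35 in Mmp13 and at -93 in Mmp1b. They were thus present in members that rose (Mmp7, Mmp3, Mmp12), in one that overlapped between the groups (Mmp13) and in one with no count in any mouse (Mmp1b), and absent from the window of Mmp27, which rose. The windows of Mmp8 and Mmp20, which belong to the same row and are not printed, held no AP-1 letters either. The first RefSeq start of Mmp12 had no match in its window.

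Among the ADAMs, the 5 that were higher included 3 sheddases known from leukocytes or mesenchymal cells. Adam8, an ADAM of leukocytes, had 2, 20 and 14 counts on day 0 and 129, 189 and 164 at day 21, with no overlap (log2 fold change 3.17 ± 0.43, SE, edgeR adjusted p = 0.00021), and it passed the filter through the day-21 mice alone. Adam12, found in activated fibroblasts and in muscle, had 27, 24 and 53 counts on day 0 and 336, 210 and 488 at day 21 (log2 fold change 2.72 ± 0.40, SE, edgeR adjusted p = 0.00033). Adam19, a relative that sheds neuregulin, had 31, 61 and 45 counts on day 0 and 225, 176 and 273 at day 21 (log2 fold change 1.75 ± 0.25, SE, edgeR adjusted p = 0.00033). It shares 10.1% of its exon bases with the opposite-strand genes Gm16033 and Gm16034, both of which were higher (2.49 ± 0.50 and 1.93 ± 0.71 as log2 fold change and SE). Adam11, one of 3 members expressed in nervous tissue whose protein has no working active site, had 45, 74 and 70 counts on day 0 and 253, 222 and 208 at day 21 (log2 fold change 1.30 ± 0.22, SE, edgeR adjusted p = 0.00098). The other 2 of that kind, Adam22 (log2 fold change 0.62 ± 0.24, SE, edgeR adjusted p = 0.057) and Adam23 (log2 fold change 0.34 ± 0.79, SE, edgeR adjusted p = 0.75), were not called. Adam22 became a DEG in 5 of 16 refits, among them those without day0 replicate 3 and without day21 replicate 1.

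The 4 ADAMs that stood highest per kb on day 0 were Adam9, Adam10, Adam15 and Adam17, all widely expressed sheddases. Adam10, which releases Notch, E-cadherin and other surface proteins, had 793, 832 and 888 counts on day 0 and 1791, 2024 and 1943 at day 21. Day-21 mice all lay above day-0 mice, and the mean was 79.9 ± 11.5 CPM (SD, n = 3) on day 0 and 122 ± 3.98 CPM at day 21 (log2 fold change 0.61 ± 0.12, SE, edgeR adjusted p = 0.0024). The fold stood just over the threshold, and the call was lost with RLE scaling, with DESeq2 and without day0 replicate 2 (log2 fold change 0.51). Adam17, which sheds TNF and ligands of the EGF receptor, had 506, 615 and 542 counts on day 0 and 936, 1154 and 1224 at day 21. Its groups did not overlap, but its fold stayed under 1.5 (log2 fold change 0.42 ± 0.11, SE, edgeR adjusted p = 0.0087). Adam17 shares 4.35% of its exon bases with Iah1 on the opposite strand, which was lower (log2 fold change -1.03 ± 0.12, SE). Adam9 had 1228, 1379 and 1307 counts on day 0 and 1559, 1488 and 1750 at day 21 (log2 fold change -0.28 ± 0.12, SE, edgeR adjusted p = 0.086), and with library size alone its sign turned, to 0.11. Adam15 had 756, 872 and 789 counts on day 0 and 1269, 1166 and 1387 at day 21 (log2 fold change 0.09 ± 0.12, SE, edgeR adjusted p = 0.57), and 20.6% of its exon bases lie in 4731419I09Rik on the opposite strand.

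On day 0 the range of Adam9 (27.6 to 32.7 CPM per kb) lay above that of Adam10 (14.0 to 18.6), and Adam10 above Adam15 (11.7 to 13.2). At day 21 Adam10 (24.2 to 25.8) and Adam9 (21.6 to 26.8) overlapped. Adam9 thus took 43.5% ± 0.476 of the summed ADAM level on day 0 and 29.7% ± 1.17 at day 21. The sum itself was 69.2 ± 6.30 CPM per kb on day 0 and 83.3 ± 6.35 at day 21, with the highest day-0 mouse and the lowest day-21 mouse both at 76.0.

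The remaining tested ADAM, Adam1a (log2 fold change -0.60 ± 0.43, SE, edgeR adjusted p = 0.28), is uncertain, since every 50-base word of its longest transcript occurs in another gene. Adam1a shares 63.7% of its exon bases with Gm42878 and 24.0% with Mapkapk5, both on the same strand. It belongs to the 21 ADAMs outside the sheddases and the nervous-tissue group, many of which are known from testis and sperm, and the other 20 were below the filter, 13 of them with no count in any mouse. Testis markers summed to between 0 and 0.283 CPM in the 6 mice. The highest counts among these 20 were those of Adam5, with 2, 0 and 0 counts on day 0 and 27, 8 and 24 at day 21, at least 4.50-fold higher at day 21 against the floor of 3 counts per library. It was below the filter, and the 5 refits that tested it called it higher (edgeR adjusted p 6.0e-05 to 0.032): that with no filter on low counts and those without day0 replicate 1, 2 or 3 or without day21 replicate 2.

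Adamts16 had the largest rise among the ADAMTS genes, with 5, 16 and 5 counts on day 0 and 237, 554 and 288 at day 21. All day-21 mice were far above all day-0 mice, and the mean was 0.778 ± 0.468 CPM (SD, n = 3) on day 0 and 22.5 ± 9.16 CPM at day 21 (log2 fold change 4.78 ± 0.41, SE, edgeR adjusted p = 1.2e-05). Adamts12, which with Adamts7 cleaves cartilage oligomeric matrix protein (COMP), had 6, 10 and 5 counts on day 0 and 189, 110 and 246 at day 21 (log2 fold change 4.13 ± 0.41, SE, edgeR adjusted p = 2.6e-05). Both passed the filter only through the day-21 mice. Adamts7 had 43, 38 and 44 counts on day 0 and 164, 159 and 210 at day 21 (log2 fold change 1.51 ± 0.23, SE, edgeR adjusted p = 0.0004), so that both COMP-cleaving members were higher. Adamts7 shares 1.94% of its exon bases with Tbc1d2b on the opposite strand, which was also higher (0.79 ± 0.19, log2 fold change and SE).

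Of the 3 procollagen N-proteinases, which trim fibrillar procollagens, Adamts2 had 29, 51 and 69 counts on day 0 and 622, 509 and 863 at day 21 (log2 fold change 3.17 ± 0.30, SE, edgeR adjusted p = 2.1e-05). Adamts3 (log2 fold change 0.88 ± 0.46, SE, edgeR adjusted p = 0.14) and Adamts14 (log2 fold change -0.69 ± 0.43, SE, edgeR adjusted p = 0.21) had at most 23 counts in any mouse, and their groups overlapped. The fibrillar collagens themselves were higher, Col1a1 by a log2 fold change of 4.35 ± 0.27 (SE) and Col3a1 by 4.03 ± 0.42, and both are among the fibroblast markers above.

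Of the 7 proteoglycanases, 3 were higher, 1 was lower, 2 were not called and 1 was not tested. The shares over all genes tested were 19.6% higher and 15.5% lower. Adamts1, an early response enzyme that cleaves versican and aggrecan, had 919, 515 and 416 counts on day 0 and 3815, 4202 and 4035 at day 21. Day0 replicate 1 had more than the other 2 day-0 mice, all day-21 mice lay above it, and the mean was 59.2 ± 28.6 CPM (SD, n = 3) on day 0 and 256 ± 12.1 CPM at day 21 (log2 fold change 2.11 ± 0.27, SE, edgeR adjusted p = 0.00012). Adamts4 had 90, 30 and 45 counts on day 0 and 394, 211 and 493 at day 21 (log2 fold change 2.15 ± 0.43, SE, edgeR adjusted p = 0.0025), and Adamts5, the other main aggrecanase, had 68, 107 and 158 counts on day 0 and 354, 532 and 398 at day 21 (log2 fold change 1.35 ± 0.27, SE, edgeR adjusted p = 0.0025). Adamts15 went against them, with 270, 367 and 226 counts on day 0 and 208, 181 and 190 at day 21, and the mean was 26.9 ± 3.48 CPM (SD, n = 3) on day 0 and 12.4 ± 2.06 CPM at day 21 (log2 fold change -1.12 ± 0.17, SE, edgeR adjusted p = 0.00036). Its exons are shared with no other annotated gene, and it was the ADAMTS protease called lower in all 16 refits. Adamts9 (log2 fold change 0.21 ± 0.18, SE, edgeR adjusted p = 0.35) and Adamts8 (log2 fold change -0.28 ± 0.59, SE, edgeR adjusted p = 0.72) overlapped between the groups, and Adamts20 had at most 2 counts in any mouse.

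Per kb, Adamts1 alone made up 50.4% ± 11.1 of the summed ADAMTS level on day 0 and 65.9% ± 2.19 at day 21, while the sum went from 21.4 ± 5.46 to 73.3 ± 3.43 CPM per kb. Adamts15 was second on day 0, at 12.7% ± 3.79, and held 1.63% ± 0.197 at day 21. At day 21 the next places after Adamts1 were held by Adamts4 (2.62 to 6.28 CPM per kb), Adamts2 (3.25 to 5.66) and Adamts16 (2.45 to 4.83), whose ranges overlapped.

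Among members linked to fibrillin microfibrils, Adamts10 had 66, 89 and 106 counts on day 0 and 236, 346 and 277 at day 21 (log2 fold change 1.13 ± 0.21, SE, edgeR adjusted p = 0.0015), and Adamts6 (log2 fold change 0.09 ± 0.25, SE, edgeR adjusted p = 0.8) was not called. Adamts17 was below the filter, with 1, 0 and 0 counts on day 0 and 12, 5 and 7 at day 21, and was called higher with no filter on low counts (edgeR adjusted p = 0.029). The ADAMTS-like proteins carry the same ancillary domains without a protease domain, and several bind fibrillin. Adamtsl5 had 20, 20 and 13 counts on day 0 and 72, 117 and 108 at day 21 (log2 fold change 1.90 ± 0.28, SE, edgeR adjusted p = 0.00039), and Adamtsl4 had 52, 52 and 62 counts on day 0 and 148, 206 and 210 at day 21 (log2 fold change 1.17 ± 0.21, SE, edgeR adjusted p = 0.0012). Adamtsl2 (log2 fold change 0.83 ± 0.23, SE, edgeR adjusted p = 0.015) and Adamtsl1 (log2 fold change 0.87 ± 0.27, SE, edgeR adjusted p = 0.022) were higher by less, and each lost its call in 3 of the 6 fits that left out 1 mouse. For Adamtsl2 these were the fits without day0 replicate 1 (log2 fold change 0.58, edgeR adjusted p = 0.023, under the fold limit), without day0 replicate 2 (0.80, adjusted p = 0.051) and without day21 replicate 1 (0.73, adjusted p = 0.053). For Adamtsl1 they were those without day0 replicate 2, day21 replicate 1 and day21 replicate 3, with an edgeR adjusted p of up to 0.0996. Adamtsl3 (log2 fold change -1.32 ± 0.64, SE, edgeR adjusted p = 0.12) had at most 17 counts. Adamtsl2 was the highest of the 5 per kb in both groups, and the summed level of the 5 went from 4.81 ± 1.11 to 9.66 ± 0.597 CPM per kb.

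Genes that act with these families were read from a list of 56, of which 46 were tested, with 20 higher and 5 lower. Of 22 tested regulators, 7 were higher and 3 were lower. Of all genes tested 19.6% were higher and 15.5% lower, so that the share lower was under that of all genes in both counts. The higher ones held Plaur (log2 fold change 1.49 ± 0.14, SE), the receptor of urokinase, Lrp1 (log2 fold change 1.11 ± 0.20, SE), an endocytic receptor that clears many of these enzymes, and Rhbdf2 (log2 fold change 1.10 ± 0.18, SE), which carries ADAM17 to the cell surface. Of the tetraspanins that bind ADAM10, Tspan15 (log2 fold change 0.59) and Tspan17 (1.24) were higher, while Tspan5 (-0.58, edgeR adjusted p = 0.0041, just under the fold limit), Tspan14 (0.25) and Tspan33 (-0.06) were not called. Thsd4 was higher as well. Lower were Furin (log2 fold change -0.64 ± 0.11, SE) and Pcsk6 (log2 fold change -2.76 ± 0.18, SE), proprotein convertases that cut the prodomains of many members, and the protease trap Pzp (log2 fold change -4.96 ± 0.62, SE), whose day-0 mice ranged from 180 to 1222 counts and whose day-21 mice had 31 to 39. Reck, a membrane-bound inhibitor of MMPs, was not called (log2 fold change 0.08 ± 0.27, SE).

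Of 6 other metzincins tested, Bmp1 (log2 fold change 2.67 ± 0.18, SE), the procollagen C-proteinase, was higher. The meprins of the proximal tubule brush border were lower, Mep1a (log2 fold change -1.82 ± 0.13, SE) and Mep1b (log2 fold change -3.64 ± 0.13, SE), and they moved with the proximal tubule markers given above. Of 18 substrates tested, 12 were higher and none was lower, against 19.6% higher and 15.5% lower of all genes tested. Cd44 (log2 fold change 4.41 ± 0.23, SE), Tnfrsf1b (log2 fold change 2.29 ± 0.15, SE), Cx3cl1 (log2 fold change 0.91 ± 0.11, SE) and Hbegf (log2 fold change 0.85 ± 0.17, SE), all shed by ADAMs, were among them. The 12 also held Col1a2 and 2 of the fibroblast markers above, Col1a1 and Col3a1, so the 2 lists overlap. Tnf had no count at day 0 and 27, 29 and 18 counts at day 21. The substrates not called were Tgfa, Btc, Il6ra, Notch1, Cdh1 and Vcan. The others of the list were below the filter and not tested. Comp had 6, 16 and 8 counts on day 0 and 3, 9 and 6 at day 21, and Acan, Bcan and Ncan had at most 2 in any mouse. Areg had no count on day 0 and 8, 10 and 18 at day 21, and Ereg had 0, 2 and 2 and then 5, 3 and 11.

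The median log2 fold change over the 50 tested members was 0.91, the same with Mmp7 and Mmp27 set at their lower bounds, and that over all genes tested was 0.03. Both are descriptions, since members with low counts at day 0 could pass the filter by rising. With 3 mice in each group, the exact permutation test (two-sided) has a smallest possible p of 0.1, which each of the 31 DEGs gave. Nothing in the sources names littermates or shared cages, so the p-values measure the spread between these mice only. Of the 50 tested members, 17 share exon bases with another annotated gene, and 9 of these are among the 31 DEGs. Leaving out all such members, an alternative chosen after seeing the data, 21 were higher and 1 was lower. The shares over all genes tested, with none left out, were 19.6% higher and 15.5% lower.

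The 33 members below the filter comprised 15 at 0 in every mouse, 13 with 1 to 10 counts in their highest mouse and 5 with more. At 0 were Adam18, Adam2, Adam20, Adam24, Adam25, Adam26a, Adam26b, Adam29, Adam30, Adam34, Adam39, Adam6a, Adam6b, Mmp1b and Mmp21. With at most 10 counts were Adam1b, Adam21, Adam28, Adam3, Adam32, Adam4, Adamts13, Adamts18, Adamts19, Adamts20, Mmp10, Mmp16 and Mmp20. The 5 with more were Mmp8, Adam5 and Adamts17, given above, Adam33 (3, 8 and 3 counts on day 0 and 3, 15 and 5 at day 21) and Adam7 (5, 4 and 1 counts on day 0 and 9, 11 and 6 at day 21).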

How the data were processed

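Kidney RNA of 6 mice was sequenced by the authors as paired reads of 150 bases, and raw counts per gene were deposited for each mouse, without normalization. The submitters' processing notes name TopHat and mm10. The version, the counting program and its strand setting are not given in the sources used here. All 55450 identifiers matched GENCODE M21 (GRCm38), which supplied gene types, positions and exons. Samples were grouped by their titles. The members, the role groups and the lists of markers and related genes were chosen with earlier results of these data known.

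Counts were filtered with filterByExpr (minimum count 10, minimum total 15), scaled by TMM and compared by the quasi-likelihood test of edgeR, with no block (edgeR 4.0.16, limma 3.58.1 and DESeq2 1.42.0 in R 4.3.3). P-values were adjusted by Benjamini-Hochberg over 16592 genes, and DEGs were called at 0.05 with a fold over 1.5. CPM used TMM-scaled library sizes, with the length of all annotated exon bases for CPM per kb. The floor was 3 counts (0.179 to 0.309 CPM by mouse), which covers counting error only. Fully named were all TIMPs, up to 8 called members with the largest change in each of 3 families (MMP, ADAM, ADAMTS with ADAMTSL) at a mean of at least 10 counts, the 3 highest per kb on day 0, members called against their family's majority and the chromosome 9 row. Other members are named with values for completeness. No 2 mice of a group were duplicates (chi-square per gene 5.53 to 18.0). A simulation of day 21 against day 0 put a 3-fold change into 200 genes with a mean of at least 10 counts. After its filter, 16259 genes were fitted. Of the 200, 172 were called in the right direction by edgeR, 176 by DESeq2 and 168 by limma-voom. Beside them, 17, 21 and 15 unchanged genes were called. Members with a lower mean are not covered by it. Promoter windows came from RefSeq (GRCm38.p6). Sharing of sequence was measured in exon bases and in 50-base words. Figures were drawn in Python 3.11.15 with matplotlib 3.10.9. Some genes counted in the lists or sharing exons with members are not reported by name here.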

Additional observations from a re-analysis of the deposited data

How the results depend on the processing

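Other scalings, filters and tests, a replicate block and leaving out each mouse gave 16 refits. In every refit that tested them, 15 or 16 for each, 26 of the 31 DEGs among the members kept their call, and 14 of the 19 others were never called in the 13 to 16 that tested them. The exceptions were Timp4, Mmp11, Adam10, Adamtsl1 and Adamtsl2, with values in the report, and Mmp19, Adam17, Adam22, Adamts3 and Adamts9, which were called in some refits. Of the members below the filter, 18 were tested in at least 1 refit and 4 were called there: Adam5, Adamts17 and Mmp20 higher and Mmp8 lower, with values in the report.

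The number of members called lower, 4 in the report, was 2 with library size alone, 2 at the stricter threshold (adjusted p under 0.01, fold over 2), and 1 without members that share exon bases, a choice made after seeing the data. Without these, 0 MMPs were lower and 3 ADAMs were higher. The number of MMPs called lower, 1 in the report, was also 0 with upper-quartile scaling, 0 with library size alone and 0 at the stricter threshold, and 2 with no filter on low counts. Leaving out 1 mouse gave 0 (without day21 replicate 3) to 2 (without day21 replicate 2). With a mean of at least 50 counts, 5 MMPs were higher in place of 8, since fewer were tested. Adam9, not called, changed sign with library size alone, from a log2 fold change of -0.28 to 0.11. The cause of the other differences was not tested. Over all genes, the median log2 change was 0.03 with TMM, 0.12 with upper-quartile scaling and 0.42 with library size alone, and the share of DEGs that were higher went from 55.8% with TMM to 81.7% with library size alone.

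With the replicate number as a replicate block, 28 members were higher and 4 were lower. The numbers were not taken to pair mice, since the correlations of same-numbered mice were -0.019, 0.165 and 0.0896, and not every mouse correlated best with its own number.

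With 3 mice a group, 2 time points and no strand setting given, the values describe these libraries. Members below the filter have no test in the report's main comparison.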
